A study of Homo sapiens with 3 samples.

Results

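The comparison described here sets LoVo-R8 cells cultured with 8 μM irinotecan against LoVo-R8 cells cultured free of the drug. LoVo, an established line, came from a human colorectal cancer. LoVo-R8 is 1 resistant line selected from LoVo under stepwise doses of irinotecan from 0.1 to 8 μM. Both sides of the comparison are cultures of that line, and whether they otherwise stayed alike was not tested. Each of the 3 cultures of the series, parental LoVo included, was measured on 1 Affymetrix Human Gene 1.0 ST array, and 2 of these arrays enter the comparison. The treatment text is common to all labels and places irinotecan 24 h before RNA purification. How long the culture with 8 μM had held the drug, and whether the parental culture received any, are not given in the sources used here. For each gene, the log2 level on the array without irinotecan was subtracted from that on the array with it. A gene was represented by 1 probe set, the one with the highest mean over the 3 arrays among the probe sets that name that gene alone. This gave 18417 genes, which is every gene the series measures in this way. The levels were normalized by the robust multichip average (RMA) method. Parental LoVo serves as a reference level only. Which LoVo-R8 array holds the drug was taken from the sample titles alone. The study's text and its table of cell cycle arrest genes do not settle this, since the text names the drug-free culture as the one used, while the table follows the array titled as holding irinotecan. If the titles were exchanged, every difference given here would change its sign.

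Irinotecan is a camptothecin analogue whose active form traps topoisomerase I on DNA, so that advancing replication forks run into the trapped enzyme. Cells answer such breaks through checkpoint kinases and through p53, which induces genes of cell cycle arrest and apoptosis. A separate program, the integrated stress response, acts through the transcription factors ATF4 and CHOP and raises genes of amino acid supply, tRNA charging and redox balance when translation initiation is curbed. Entry into S phase is driven by E2F factors, which induce cyclin E and the replication machinery. Metallothioneins are small cysteine-rich proteins that bind zinc and copper and are induced by metals through the factor MTF1. Many of the largest differences between the LoVo-R8 cultures lay in these programs or in the small RNAs of splicing and ribosome assembly.

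With 1 array per condition there is no replicate spread, and no test, SD or p-value can be given. A difference therefore compares 2 arrays, and condition, culture and array cannot be told apart. Differences of at least 2-fold, or 1 on the log2 scale, were counted, and the distribution over all genes was used as the background. The median level of all probe sets was 6.94 in parental LoVo, 6.95 in LoVo-R8 without irinotecan and 6.94 with it. The median difference between the LoVo-R8 arrays was 0.00, and 2236 genes (12.1%) had the same value on both. The size of the difference was under 0.53 for 95% of genes and under 0.90 for 99%. The 341 olfactory receptor genes, a family used mainly in the nose, had 0 members past 2-fold, and 95% of them differed by less than 0.34. Only 2 of the 341 reached the median of all probe sets on either LoVo-R8 array, and 34.9% had the same value on both. Their small differences therefore do not show the spread between arrays at higher levels. With irinotecan, 97 genes (0.527%) exceeded the limit upwards and 21 (0.114%) downwards, together 118 (0.641%). Of these 118 genes, 15 had a level below the median of all probe sets on both LoVo-R8 arrays. The genes nearest to the limit inside it were IL37 at 1.003 and UBR7 at 1.01 among the higher genes, and PCK2 and NIBAN1, both at -1.03, among the lower ones. Just outside it lay DSCC1 at 0.996, ANXA6 at 0.995, EGR1 at -0.996 and PPP1R15A at -0.975.

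**Figure D1:**
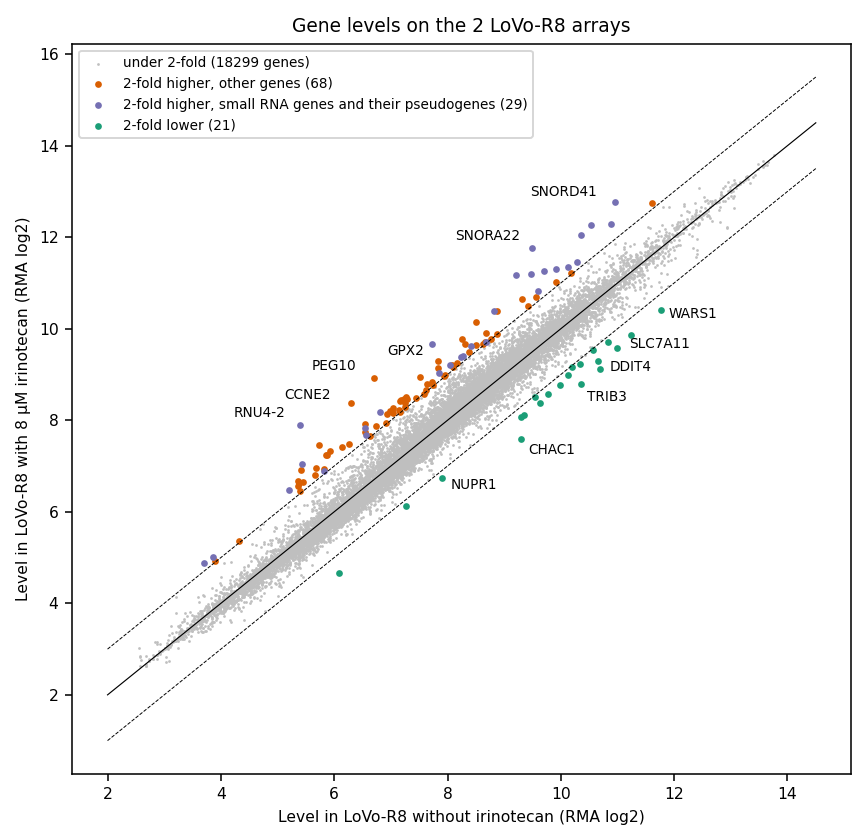
Log2 RMA level of each of 18417 genes in LoVo-R8 without irinotecan (x axis) and with 8 μM irinotecan (y axis), 1 array each. The solid line marks equal levels and the dashed lines 2-fold differences. Orange and purple points are the 97 genes at least 2-fold higher (purple: 29 small RNA genes and their pseudogenes) and green points the 21 at least 2-fold lower.

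Genes of the integrated stress response were lower with irinotecan. Of 27 measured ATF4 and CHOP targets, 6 were at least 2-fold lower and 0 higher, beside 0.114% lower among all genes. The median of the list was -0.66, with 24 members below zero, 3 at zero and 0 above it. At a limit of 1.5-fold, 15 members were lower, beside 1.08% of all genes. CHAC1, an enzyme that breaks down glutathione, had the lowest difference of all genes. Its level was 9.28 in parental LoVo, 9.29 in LoVo-R8 without irinotecan and 7.60 with it, a 3.23-fold lower level. The parental and the drug-free culture were thus alike for this gene, and the culture with the drug stood below both.

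The sequences before the start sites of CHAC1 and DDIT4, the pair of genes with the lowest differences, are shown because ATF4 binds with C/EBP partners to an element whose core was searched as TGATGNAA on both strands. The 250 bases upstream of the annotated start are given, 5′ to 3′ on the gene's strand, from RefSeq on GRCh38.p14. CHAC1 lies at chr15:40953221-40953470 on the plus strand and DDIT4 at chr10:72273674-72273923 on the plus strand. Capitals mark a match.
CHAC1: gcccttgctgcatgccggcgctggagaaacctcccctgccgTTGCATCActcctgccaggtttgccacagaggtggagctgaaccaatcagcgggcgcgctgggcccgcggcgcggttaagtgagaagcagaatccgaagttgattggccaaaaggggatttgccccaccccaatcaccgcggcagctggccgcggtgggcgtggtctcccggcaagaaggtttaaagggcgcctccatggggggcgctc
DDIT4: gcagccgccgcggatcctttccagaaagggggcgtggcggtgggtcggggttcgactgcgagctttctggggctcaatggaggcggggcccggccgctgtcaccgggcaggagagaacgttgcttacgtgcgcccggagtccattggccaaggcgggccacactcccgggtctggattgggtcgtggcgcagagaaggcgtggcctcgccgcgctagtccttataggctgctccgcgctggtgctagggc
CHAC1 holds 1 match, on the opposite strand, beginning 209 bases before the start, and DDIT4 holds 0. Windows of 300 bases that hold the core are 3.62% of 35116 and belong to 4.46% of 27305 genes. Of 23 list members with a window, 7 hold it (ATF3, CHAC1, ASNS, CEBPG, FGF21, JDP2 and HERPUD1). Of the 6 members past 2-fold, 5 have a window and 1, CHAC1, holds the core. The windows were chosen by the size of the difference, but the motif was picked with these results known, and a match is a description of letters, not a binding site.

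The regulators of this program were themselves lower. DDIT3, which encodes CHOP, was at 9.47 in parental LoVo, 10.66 in LoVo-R8 without irinotecan and 9.29 with it, a 2.58-fold lower level. TRIB3, a pseudokinase that restrains ATF4 and AKT, was at 9.26, 10.36 and 8.80 in the same order, 2.95-fold lower. NUPR1, a small stress-induced chromatin protein, was at 7.91, 7.91 and 6.75, 2.24-fold lower. DDIT3 and TRIB3 were above parental LoVo only in the drug-free LoVo-R8 culture, whereas NUPR1 was below parental LoVo only in the culture with the drug. ATF4 mRNA itself differed by less, with 11.01, 10.96 and 10.53. PPP1R15A, the phosphatase subunit that reverses the translation block, was at 8.53, 9.93 and 8.96, a difference of -0.98.

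The pair of mTORC1 inhibitors on the list were also among the lowest. DDIT4 was at 10.11 in parental LoVo, 10.70 in LoVo-R8 without irinotecan and 9.12 with it, 2.99-fold lower. SESN2, a sestrin that senses leucine, was at 8.47, 9.34 and 8.12, 2.34-fold lower. The sestrins did not move together, since SESN1 differed by -0.62 and SESN3 by 0.50. SESN3 was at 7.61, 9.22 and 9.72, and thus remained above parental LoVo on both LoVo-R8 arrays. Over 26 genes of sestrins, AMPK and the mTOR complex, 2 were 2-fold lower (DDIT4 and SESN2), beside 0.114% of all genes. The median was -0.08.

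Genes that supply and charge amino acids differed in part. SLC7A11, the cystine carrier of system xc-, was at 10.79 in parental LoVo, 10.996 in LoVo-R8 without irinotecan and 9.58 with it, 2.67-fold lower. It was the only one of 30 amino acid transporters past 2-fold, beside 0.114% lower among all genes. SLC1A4 (-0.79), SLC38A2 (-0.72) and SLC1A5 (-0.69) were past 1.5-fold, and the median of the list was -0.17. WARS1, the tryptophanyl-tRNA synthetase, was at 11.65, 11.76 and 10.40, 2.56-fold lower. It was the only one of 15 cytosolic synthetases past 2-fold, beside the same 0.114% of all genes. CARS1 followed at -0.72, and the list's median was -0.20. The 16 mitochondrial synthetases had a median of 0.06 and 0 members past 1.5-fold. ASNS, asparagine synthetase, was at 10.38, 10.71 and 9.76, a difference of -0.95. GOT1, the cytosolic aspartate transaminase, was close to it at -0.96. The serine and folate enzymes had a median of -0.03, with PHGDH at -0.70 and PSAT1 at -0.56. PCK2, the mitochondrial enzyme that makes phosphoenolpyruvate, was at 9.91, 10.19 and 9.16.

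**Figure D2:**
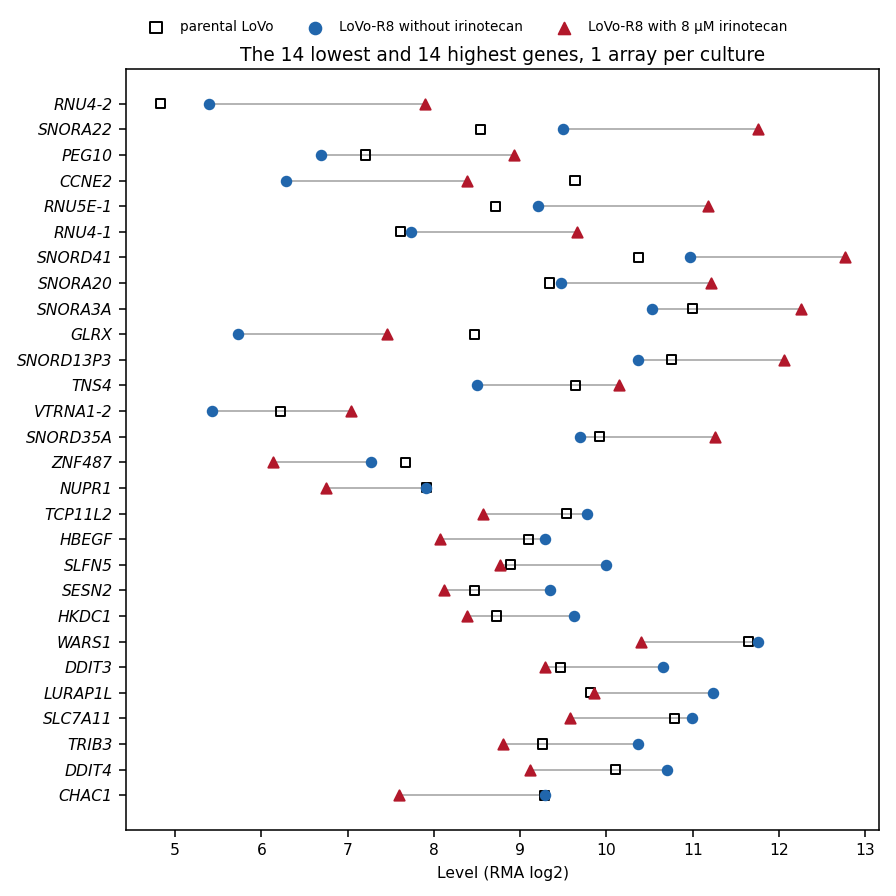
Log2 RMA level (x axis) of the 14 genes with the highest and the 14 with the lowest difference among genes at or above the median of all probe sets on one LoVo-R8 array. Squares are parental LoVo, circles LoVo-R8 without irinotecan and triangles LoVo-R8 with 8 μM irinotecan, 1 array each. In CHAC1 and NUPR1 the square and circle coincide and the triangle lies below, and in CCNE2 and GLRX the triangle lies between circle and square.

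Other genes among the lowest serve growth factor signaling and metabolism. HBEGF, a ligand of the EGF receptor, was at 9.10 in parental LoVo, 9.29 in LoVo-R8 without irinotecan and 8.07 with it, 2.33-fold lower. The ligand genes BTC and EREG differed by -0.94 and -0.77, while the receptors EGFR (-0.06), ERBB2 (0.11) and ERBB3 (0.10) differed little. HKDC1, a hexokinase, was at 8.72, 9.63 and 8.39, 2.37-fold lower. EGR1, an immediate early transcription factor, was at 8.70, 10.43 and 9.43, just short of 2-fold, and crossed it under each of 3 other scalings. SCD, which desaturates stearoyl-CoA, differed by -0.96. LURAP1L (-1.38), SLFN5 (-1.22), TCP11L2 (-1.21) and ZNF487 (-1.14) complete the 14 lowest genes at or above the median of all probe sets. Below that level THUMPD3-AS1, an antisense transcript named after its value was seen, was at 5.09, 6.09 and 4.67, and with -1.42 it was the fourth lowest of all genes.

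p53 targets were lower by smaller amounts. Of 29 measured targets, 1 was 2-fold lower (SESN2, which is also on the ATF4 list), beside 0.114% of all genes. At 1.5-fold, 9 were lower, beside 1.08% of all genes, and 0 higher. The median was -0.41, with 26 members below zero and 2 above it. GADD45A, which acts in growth arrest, was at 8.50 in parental LoVo, 9.53 in LoVo-R8 without irinotecan and 8.61 with it. MDM2, the ubiquitin ligase that limits p53, was at 11.55, 11.77 and 10.92. CDKN1A, which encodes the CDK inhibitor p21, was at 9.22, 10.67 and 10.18. GADD45A was near the parental level with the drug, MDM2 was below it, and CDKN1A stayed above it on both LoVo-R8 arrays. The list's median lay 0.26 above parental LoVo without irinotecan and at 0.00 with it.

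Genes of the G1/S transition and DNA replication were higher with irinotecan. Of 40 measured genes, 2 were at least 2-fold higher (CCNE2 and POLE2) and 0 lower, beside 0.527% higher among all genes. The list's median was 0.42, with 38 members above zero, and 14 were 1.5-fold higher beside 2.87% of all genes. CCNE2, one of the E cyclins that activate CDK2, was at 9.63 in parental LoVo, 6.29 in LoVo-R8 without irinotecan and 8.38 with it, a 4.27-fold higher level that stayed below the parental one. POLE2, a subunit of the leading-strand polymerase, was at 8.19, 7.25 and 8.37, 2.18-fold higher. Subunits of the replicative helicase were close to the limit, with MCM4 at 0.99, MCM3 at 0.98 and GINS2 at 0.97. MCM3 was at 9.87 in parental LoVo, 8.73 without irinotecan and 9.71 with it. The loading factor CDC6 (10.24, 8.11 and 9.02) and the phosphatase CDC25A (8.75, 6.70 and 7.67) had the same order of arrays. Against parental LoVo the list's median was -0.58 without irinotecan and -0.16 with it.

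The windows of POLE2 and MCM3 are shown because E2F factors bind near the start sites of such genes. They are the 2 with the largest differences among the 35 members that have a window in the table used. A loose form of the E2F core, TTTNNCGC, was searched on both strands. POLE2 lies at chr14:49688215-49688464 and MCM3 at chr6:52284743-52284992, both on the minus strand of GRCh38.p14 and both from RefSeq. Each sequence gives the 250 bases before the start, 5′ to 3′ on the gene's strand, with matches in capitals.
POLE2: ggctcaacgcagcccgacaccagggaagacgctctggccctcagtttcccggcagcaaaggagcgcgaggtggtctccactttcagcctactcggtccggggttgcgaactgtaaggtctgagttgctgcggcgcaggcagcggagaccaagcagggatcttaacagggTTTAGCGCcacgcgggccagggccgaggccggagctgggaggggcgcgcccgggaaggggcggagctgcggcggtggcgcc
MCM3: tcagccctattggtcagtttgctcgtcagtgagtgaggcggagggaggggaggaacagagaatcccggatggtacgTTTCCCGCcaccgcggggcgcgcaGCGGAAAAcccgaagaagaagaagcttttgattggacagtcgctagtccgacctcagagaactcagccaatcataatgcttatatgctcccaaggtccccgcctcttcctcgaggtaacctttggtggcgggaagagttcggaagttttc
POLE2 holds 1 match, beginning 81 bases before the start, and MCM3 holds 2, beginning 174 and 150 bases before it. The core is in 6.89% of all windows and 8.23% of genes with a window. It is in 22 of 35 list members with a window. That share describes the list, made of genes that E2F factors are known to induce, and uses no array values. The motif was picked with these results known, and a match is a description of letters, not a binding site.

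Other parts of the cell cycle differed less. The 33 mitotic genes had 0 members past 1.5-fold, a median of 0.08 and a range from -0.32 for CDC25C to 0.47 for MKI67. Among the G1 cyclins and their regulators CCND2, a D cyclin, was 2.23-fold higher at 11.68, 7.64 and 8.79, and the CDK inhibitor CDKN2B differed by -0.69. The 25 genes of recombination and the Fanconi pathway had a median of 0.24 and 0 members past 2-fold. At 1.5-fold, 6 of the 25 were higher and 0 lower, beside 2.87% of all genes higher. FANCB (0.91), EXO1 (0.85) and RAD54B (0.84) had the highest differences there. The 60 clustered histone genes ran the other way, with a median of -0.33 and 57 members below zero. Of the 60, 9 were 1.5-fold lower, beside 1.08% of all genes. H2BC14 had the lowest difference at -0.88, and 0 histone genes were past 2-fold. Histone genes are near-identical copies, so a level may combine several of them, as H4C14 and H4C15 show with the same value on every array.

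**Figure D3:**
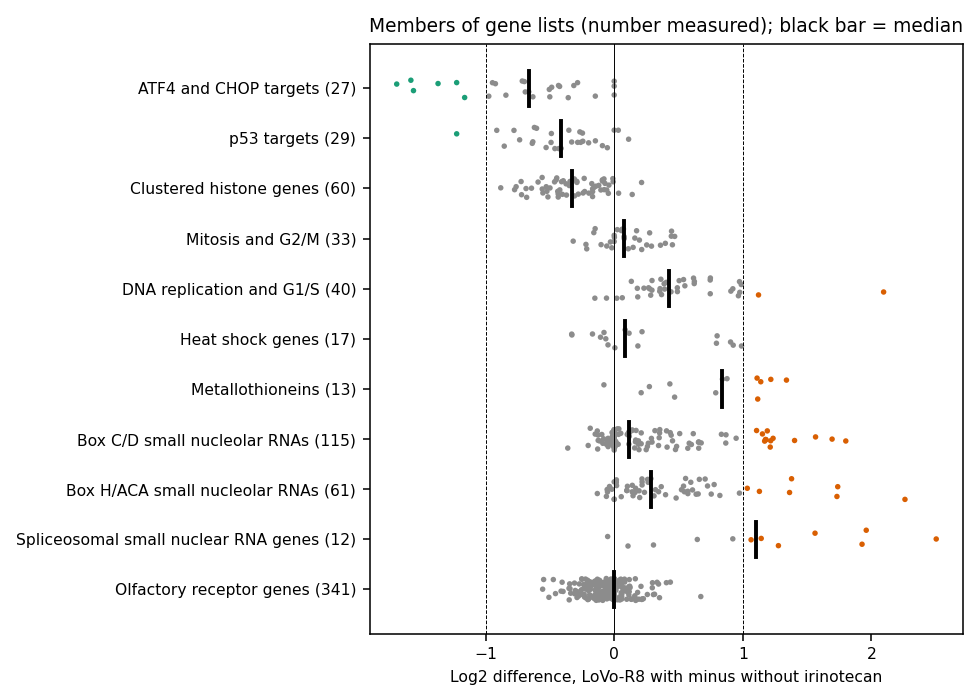
Log2 difference between LoVo-R8 with and without irinotecan (x axis) for each measured member of 11 gene lists, 1 point per gene and the black bar at the list's median. Green and orange points lie at least 2-fold lower or higher. The medians run from -0.66 for ATF4 and CHOP targets to 1.104 for spliceosomal small nuclear RNA genes, and olfactory receptor genes lie around 0.00.

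Metallothioneins were higher with irinotecan. Of 13 measured genes, 5 were at least 2-fold higher, beside 0.527% of all genes, and 0 were lower. At 1.5-fold, 8 were higher, beside 2.87% of all genes, and the median was 0.84. MT1X was at 10.59 in parental LoVo, 9.32 in LoVo-R8 without irinotecan and 10.66 with it, 2.53-fold higher. MT1E was at 10.83, 6.99 and 8.20, 2.33-fold higher. MT2A was at 12.03, 11.61 and 12.75, 2.20-fold higher. MT1X thus returned to the parental level, MT1E stayed well below it and MT2A went above it. MT1G and MT1F were past 2-fold as well, with differences of 1.12 and 1.11. The brain form MT3 differed by -0.08. Members of this family are close copies, and probes may read more than 1 of them, so the 5 genes are not independent. The list's median was 0.84 below parental LoVo without irinotecan and at 0.00 with it.

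The windows of MT1X and MT2A are shown because metal response elements are known to cluster there. Of the 13 genes, 5 have a window (MT1B, MT1H, MT1X, MT2A and MT4), and these are the 2 among them with the largest differences. The core TGCNCNC was searched on both strands. MT1X lies at chr16:56682220-56682469 and MT2A at chr16:56608334-56608583, both on the plus strand of GRCh38.p14 and both from RefSeq. Each gives the 250 bases before the start with matches in capitals.
MT1X: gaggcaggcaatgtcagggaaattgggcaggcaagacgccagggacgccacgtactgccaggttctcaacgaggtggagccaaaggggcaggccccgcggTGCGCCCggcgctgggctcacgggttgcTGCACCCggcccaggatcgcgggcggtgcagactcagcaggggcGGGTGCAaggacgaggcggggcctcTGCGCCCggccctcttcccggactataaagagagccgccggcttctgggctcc
MT2A: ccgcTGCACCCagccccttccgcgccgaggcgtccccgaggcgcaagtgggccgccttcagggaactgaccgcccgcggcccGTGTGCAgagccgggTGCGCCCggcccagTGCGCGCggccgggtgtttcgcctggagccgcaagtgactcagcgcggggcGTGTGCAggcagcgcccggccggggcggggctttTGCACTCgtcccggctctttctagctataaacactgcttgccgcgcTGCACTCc
MT1X holds 4 matches and MT2A 7. At least 1 match is found in 55.9% of all windows, and at least 4 in 2.94%. All 5 metallothionein windows hold at least 4, a limit set after their matches had been counted. MT4, which also reaches that limit, differed by 0.27 and MT1H by 0.21. In all, 8 motif spellings were searched with these results known, among them narrower or longer forms of the 3 cores. None of the matches was tested for binding. TGATGNAAN was in 3.61% of windows, TGCACNC in 12.1%, TGCGCNC in 19.97%, TTTGGCGC in 0.65% and TTTCCCGC in 1.63%, and matches to these overlap those to the wider forms. TTTGGCGC and TTTCCCGC were each found in 9 of 35 replication genes with a window.

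Redox and chaperone genes were higher in part. GPX2, the glutathione peroxidase of the gut epithelium, was at 11.66 in parental LoVo, 7.83 in LoVo-R8 without irinotecan and 9.30 with it, 2.77-fold higher. GLRX, glutaredoxin, was at 8.47, 5.73 and 7.45, 3.30-fold higher. Both were lower in drug-free LoVo-R8 than in parental LoVo and in between with the drug. NQO1, a quinone reductase induced by NRF2, differed by 0.94, SOD1 by 0.75 and PRDX1 by 0.73, while HMOX1 differed by -0.27. The NRF2, glutathione and peroxide list had 1 of 32 genes higher (GPX2) and 1 lower (SLC7A11), beside 0.527% and 0.114% of all genes. Its median was 0.14. The 17 heat shock genes had a median of 0.09, with 10 above zero and 7 below, and 0 were past 2-fold. At 1.5-fold, 0 were lower and 5 were higher, beside 2.87% of all genes higher. The 5 were HSPE1 (0.99), HSPH1 (0.93), HSP90AA1 (0.91), DNAJB1 (0.80) and DNAJA1 (0.80). HSPH1, a cochaperone, was at 10.88, 9.05 and 9.97. The probe sets shared by HSPA1A and HSPA1B, which encode the inducible HSP70, cannot be given to 1 gene. Of them, 4 with distinct values were past 2-fold, with differences from 1.04 to 1.14. Their levels were between 11.15 and 11.26 in parental LoVo, 8.62 and 8.82 without irinotecan and 9.76 and 9.94 with it. Probe sets of several genes were listed only where past 2-fold, so the number below that limit is not given. These 4 read the same pair of genes and are not independent. A list of 13 chaperone genes induced by HSF1, chosen after these values had been seen, had a median of 0.52.

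Small non-coding RNA genes made up 29 of the 97 higher genes, with 2 pseudogenes of SNORD13 among them, and 0 of the lower ones. Small nuclear RNAs form the core of the spliceosome, and small nucleolar RNAs (snoRNAs) guide methylation (box C/D) or pseudouridylation (box H/ACA) of ribosomal RNA. By RefSeq class, 7 of 20 small nuclear RNA and 18 of 175 snoRNA genes were at least 2-fold higher, beside 0.527% of all genes. The medians were 0.60 and 0.17. Of 173 microRNA genes, 0 were past 2-fold. RNU4-2, a U4 gene, had the highest difference of all genes, at 4.83 in parental LoVo, 5.40 in LoVo-R8 without irinotecan and 7.90 with it, 5.67-fold higher. RNU4-1 was at 7.61, 7.74 and 9.66. RNU5E-1, a U5 gene, was at 8.71, 9.21 and 11.17. For each of these genes parental LoVo and drug-free LoVo-R8 were nearer to each other than to the culture with the drug.

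Other spliceosomal RNAs followed this order in part. RNU5B-1 (1.28), RNU5D-1 (1.14) and RNU5A-1 (1.06) of U5 and RNU4ATAC (1.56) of the minor spliceosome were past 2-fold. RNU5D-1 was dim, at 3.87 in LoVo-R8 without irinotecan and 5.01 with it. RNU5A-1, at 5.82 and 6.89, was also below the median of all probe sets on both LoVo-R8 arrays. RNU2-1 differed by 0.65, and 1 probe set shared by several U1 genes was at 11.54, 11.45 and 12.46. The other RNAs of the minor spliceosome differed little, with RNU6ATAC at 0.31, RNU11 at 0.11 and RNU12 at -0.05. This list of 12 genes was put together after the values had been seen, and many of its members are copies with shared probes. Its median lay 0.01 above parental LoVo without irinotecan and 0.94 above it with irinotecan.

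Among snoRNAs, 13 of 115 box C/D genes and 7 of 61 box H/ACA genes were at least 2-fold higher, beside 0.527% of all genes. The lists include pseudogenes, and 0 of their members were lower. The medians of the box C/D and box H/ACA lists were 0.11 and 0.29. SNORA22 was at 8.54 in parental LoVo, 9.50 in LoVo-R8 without irinotecan and 11.76 with it, 4.79-fold higher. SNORD41 was at 10.37, 10.96 and 12.76, 3.48-fold higher. SNORD13, a box C/D RNA needed for acetylation of ribosomal RNA, differed by 1.40. VTRNA1-2, a vault RNA, was at 6.22, 5.42 and 7.04, and SCARNA1, a small Cajal body RNA, differed by 1.27. RNA was prepared with a column kit and labelled from random primers, and recovery of small RNAs by this route was not measured, so its part in these differences was not tested.

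Most snoRNAs are cut from introns of host genes, and each was set beside the measured gene whose RefSeq span contains it. Of 80 snoRNAs with 1 such gene, 10 were at least 2-fold higher, and they lie in 9 genes. These 9 genes differed from -0.24 to 0.40 with a median of 0.09, and 0 of them were past 2-fold. SNORD41 (1.80) lies in TNPO2 (0.03), SNORA20 (1.74) in TCP1 (0.40), and SNORA3A (1.73) in RPL27A (0.25). SNORA22 (2.26) lies in LINC03006, which was at 5.67 in parental LoVo and 5.73 on both LoVo-R8 arrays. That level is below the median of all probe sets, so this gene may not be expressed and its difference of 0.00 tells little. SNORD14C and SNORD14E (1.18 and 1.17) both lie in HSPA8 (0.09), and SNORD45B (1.15) lies in RABGGTB (-0.24). SNHG17, a non-coding host gene, was at 9.30 in parental LoVo, 10.34 without irinotecan and 9.24 with it, 2.15-fold lower, while the 3 snoRNAs within it differed by 0.71 (SNORA71A), 0.52 (SNORA71C) and 0.37 (SNORA71D). The spans carry no strand here, and the comparison was made after the snoRNA values had been seen.

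**Figure D4:**
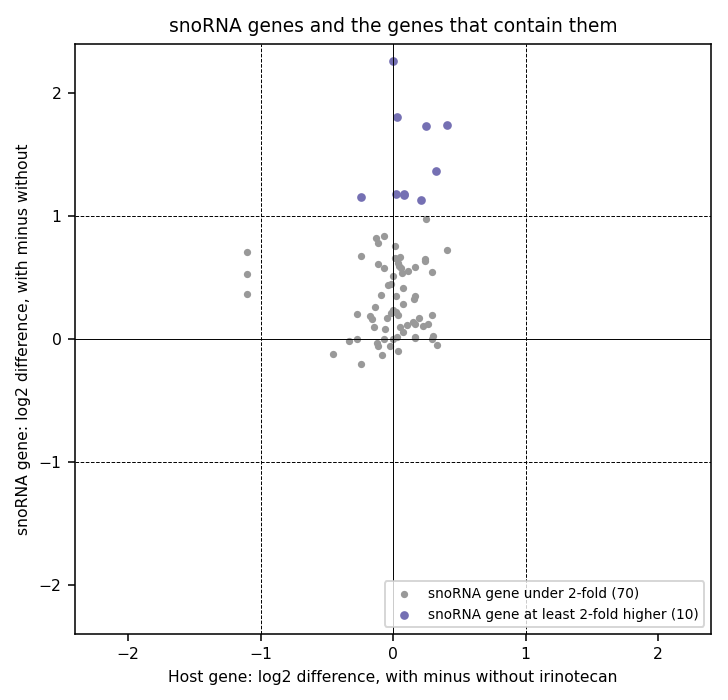
Log2 difference between LoVo-R8 with and without irinotecan of 80 snoRNA genes (y axis) against that of the gene containing each (x axis), with dashed lines at 2-fold. Purple points are the 10 snoRNAs at least 2-fold higher, whose containing genes lie between -0.24 and 0.40.

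Several further genes stood out one by one. PEG10, an imprinted gene derived from a retrotransposon, was at 7.21 in parental LoVo, 6.70 in LoVo-R8 without irinotecan and 8.93 with it, 4.71-fold higher and above both other cultures. SGCE, its imprinted neighbor on chromosome 7, was at 8.28, 6.93 and 8.13, 2.30-fold higher. TNS4, a focal adhesion protein, was at 9.64, 8.49 and 10.14, 3.13-fold higher. CCL20, a chemokine of the epithelium, was at 5.03, 7.83 and 9.14, so that the culture with the drug was farther from parental LoVo. IL1A (1.04) was the other of 30 chemokine, cytokine and NF-kappaB genes past 2-fold, beside 0.527% higher among all genes. CXCL8 and CCL5 both differed by 0.94, and the list's median was 0.06. IFI6 (1.36) was the only one of 34 interferon-stimulated genes past 2-fold, beside the same 0.527%, and the median was 0.07. ACSL1, which activates fatty acids, was at 9.14, 5.37 and 6.57. SQLE, squalene epoxidase, differed by 0.97, although the 20 cholesterol genes had a median of 0.09. In the respiratory chain 1 of 80 genes was past 2-fold (NDUFA2, 1.15), beside 0.527% higher among all genes. At 1.5-fold, 10 of the 80 were higher and 0 lower, beside 2.87% of all genes higher. The median was 0.17, with 59 members above zero and 14 below.

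Of 18 listed genes for the activation, breakdown and transport of irinotecan, 12 were measured. Of the 12, 8 reached the median of all probe sets on either LoVo-R8 array. Past 2-fold were 0 of the 12, and their median difference was -0.08. TOP1, the drug's target, was at 11.33 in parental LoVo, 11.66 in LoVo-R8 without irinotecan and 11.34 with it. The carboxylesterases that activate the drug had the differences -0.77 (CES1, past 1.5-fold) and -0.43 (CES2). The efflux pump ABCG2 was at 8.18, 10.84 and 11.16 and ABCB1 at 8.31, 10.39 and 10.76, so both were above parental LoVo in either LoVo-R8 culture. Of 43 ABC transporters, 0 were past 2-fold and the median was 0.02. CHEK1 differed by 0.21 and TOPBP1 by 0.52. Of 17 genes in the study's table of cell cycle arrest, 2 were lower (DDIT3 and SESN2), beside 0.114% of all genes. The median was -0.43, with the direction resting on the sample titles as said at the start. That table was chosen on these same samples and is not independent evidence. Other lists with a median within 0.10 of zero and 0 members past 2-fold include 64 ribosomal proteins, 36 proteasome subunits, 29 nucleolar assembly factors, 48 keratins, 20 Notch genes and 28 genes of apoptosis.

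Of 14 markers of colon epithelium, 13 reached the median of all probe sets on either LoVo-R8 array. EPCAM was at 12.33 in parental LoVo, 11.90 in LoVo-R8 without irinotecan and 12.03 with it, and KRT8 was at 13.27, 12.73 and 12.77. Not all markers stayed this near to parental LoVo. CLDN4 was at 9.76, 7.74 and 8.78, and CDH1 differed from parental LoVo by -3.06 without irinotecan and -2.26 with it. Against parental LoVo, 4 of the 14 were at least 2-fold lower and 1 higher without irinotecan, and 3 lower and 2 higher with it. The list's median against parental LoVo was -0.42 without irinotecan and -0.28 with it. Between the LoVo-R8 arrays, 1 of the 14 was past 2-fold (CLDN4, 1.04), beside 0.527% higher among all genes. CDH1 differed by 0.80, and the median was 0.20. The 8 fibroblast markers differed by -0.18 to 0.17 and the 5 endothelial markers by -0.20 to 0.00. Among 5 leukocyte markers PTPRC was at 4.12 on every array, LYZ differed by 0.44, CD68 by 0.39, CD3E by -0.10 and CD14 by -0.23. Their median was 0.00. CD68 was at 9.64 in parental LoVo, 11.12 without irinotecan and 11.51 with it. In such bulk RNA, fewer cells in a state and less RNA per cell cannot be told apart.

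Relative to the parental level, the differences went either way. Of the 97 higher genes, 42 were nearer to parental LoVo with irinotecan than without it and 55 were farther away. Of the 21 lower genes, 10 were nearer and 11 farther. Among all genes with any difference, 54.8% were nearer. The parental array enters both distances. Both LoVo-R8 arrays also enter the difference by which the genes were chosen, and these counts are descriptions. Over all genes, LoVo-R8 without irinotecan was at least 2-fold above parental LoVo for 1.64% and below it for 2.78%, and LoVo-R8 with irinotecan for 2.25% and 2.3%. Of the 97 higher genes, 21 were at least 2-fold from parental LoVo only without irinotecan, 33 only with it, 21 on both arrays and 22 on neither. The corresponding counts for the 21 lower genes were 7, 8, 0 and 6. CCNE2, GPX2, GLRX and MT1E were lower in LoVo-R8 than in parental LoVo and nearer to it with the drug. Of the 12 spliceosomal RNAs, 10 were farther from parental LoVo with the drug and 2 nearer. RNU4-2, RNU4-1, RNU5E-1, SNORA22, PEG10 and CCL20 went away from the parental level upwards, and CHAC1, NUPR1, WARS1 and SLC7A11 went away from it downwards.

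**Figure D5:**
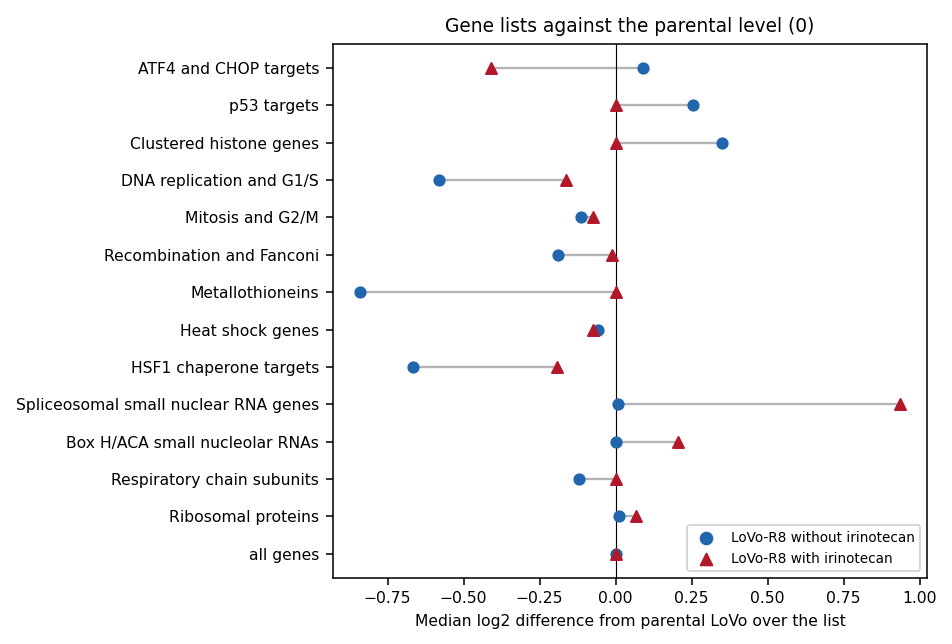
Median log2 difference from parental LoVo (x axis, 0 is the parental level) over each gene list, for LoVo-R8 without irinotecan (circles) and with 8 μM irinotecan (triangles). Replication genes move from -0.58 to -0.16 and metallothioneins from -0.84 to 0.00, while ATF4 and CHOP targets move from 0.09 to -0.41 and spliceosomal RNAs from 0.01 to 0.94.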

How the data were processed

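RNA of 3 cultures was measured on 1 array each. The authors normalized the arrays by RMA and deposited log2 levels. Their paper names R and Bioconductor, and the notes of the submitters give Affymetrix Expression Console 1.1. No scanner values were used here, so the log2 scale rests on the methods and on the range of the values (2.07 to 14.2). Of 33297 probe sets, 19460 name 1 gene, 1754 several and 12083 none in the platform annotation. Samples were grouped by their titles. Levels were subtracted and counted at 2-fold, with no test. Named genes were the 14 highest and 14 lowest above the array median, up to 6 members of each of 60 lists with the largest differences, and the genes the study discusses. Genes beyond this rule, and 4 added lists, were chosen after their values were seen. Members and lists were chosen with earlier results of these data known. Gene classes, spans and sequences came from RefSeq (GRCh38.p14), to which 18389 genes were matched. Calculations used Python 3.11.15, numpy 2.4.6, pandas 2.3.3, statsmodels 0.14.6 and matplotlib 3.10.9, and were checked on simulated data. Alternatives were thresholds, dim filters, centring, loess (span 0.3, 3 iterations), quantile normalization and other probe set choices.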

Additional observations from a re-analysis of the deposited data

How the results depend on the processing

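At a limit of 1.5-fold, 529 genes were higher and 198 lower with irinotecan, and at 3-fold 13 and 1. Over all probe sets, including those with several genes or none, 285 were higher and 86 lower. Under median centring, loess correction, repeated quantile normalization, both dim filters and averaging of a gene's probe sets, the counts stayed between 83 and 96 higher and between 20 and 29 lower, beside 97 and 21. With 2 alternatives added after seeing the data, they were 68 and 21 without small RNA and pseudogene classes, and 93 and 21 without genes dim on both arrays. Of 359 medians of lists under these settings, 11 moved by over 0.1, all under the dim filters, among them ABC transporters from 0.02 to 0.13 and chemokine, cytokine and NF-kappaB genes from 0.06 to 0.24. These filters keep a gene that is bright on 1 LoVo-R8 array alone, so they can favor genes that differ. No named gene turned its direction, and ASNS, CDC25A, DSG3, EGR1, GADD45A, GOT1, PPP1R15A and SCD passed 2-fold under at least 1 of the 3 scalings. With repeated quantile normalization the p53 list had 2 lower members instead of 1 and the study's list of cell cycle arrest genes had 4 instead of 2. No paired analysis was possible because each condition has 1 array, and for the same reason no array could be left out. The number of arrays limits the precision, and signal over background was not available for single probe sets.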

Other observations

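Probe sets without a gene name differed more often than named ones. Of 12083, 163 were at least 2-fold higher and 62 lower with irinotecan, together 1.86%, against 0.65% of probe sets that name 1 gene. The share was 4.14% among the 4203 with the lowest identifiers and 0.65% among the other 7880. What these probe sets read was not analysed here.

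Among probe sets that name several genes, 1 shared by LY75-CD302 and CD302 was at 9.56 in parental LoVo, 5.32 in LoVo-R8 without irinotecan and 6.89 with it. A further one, shared by SUPT20HL1 and SUPT20HL2, was at 5.34, 6.50 and 5.12.

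Gene length, as the span in RefSeq, had a weak rank correlation with the difference over 16902 protein-coding genes (rho = 0.08), and the median difference in each of 5 equal bins of span lay between -0.02 and 0.00. Over the 10776 of them at or above the median of all probe sets rho was 0.10, and the medians of the bins lay between 0.00 and 0.05. Genes share arrays and are not replicates, and spans were first looked at in other bins.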
